A study of Homo sapiens with 6 samples.

Results

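The 47 genes described here encode the machinery that copies DNA and the enzymes that supply its nucleotides. They were chosen by symbol, as members of known replication complexes and pathways, and all 47 were found among the 57905 gene identifiers of the deposited table. A549 is an established human lung adenocarcinoma cell line. RNA was taken from 3 A549 samples transfected with miR-19a, a microRNA, and from 3 transfected with a negative control microRNA, miR-NC, each at 25 nM, with harvest given as 24 h. Cells of both groups had thus met the lipid transfection reagent Lipofectamine and a small RNA, and no untransfected sample is analysed here. Separate cultures are not named in the labels, and the p-values therefore rest on the spread among these 6 samples, part of which may be technical.

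Replication origins are licensed when the origin recognition complex (ORC), CDC6 and CDT1 load the MCM2 to MCM7 ring onto DNA, and geminin (GMNN) blocks CDT1 once S phase has begun. The kinase CDC7 with DBF4, together with CDC45 and the GINS complex, turns the loaded ring into an active helicase. DNA polymerase alpha with primase then starts each new strand. DNA polymerases delta and epsilon copy the strands on the sliding clamp PCNA, which replication factor C (RFC) loads. Many of these genes are known targets of E2F transcription factors and are transcribed most strongly around the entry into S phase.

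Total counts lay between 15699037 and 17957932 per library. The epithelial and A549 markers summed to between 6518 and 6629 FPKM (a level scaled for gene length and library total) in miR-NC and between 6206 and 6329 FPKM in miR-19a, with 10 of 11 markers at a mean of at least 1 FPKM, whereas EPCAM, an epithelial adhesion protein, stayed below that level in every library. The 6 fibroblast markers summed to between 0.89 and 1.07 FPKM in miR-NC and between 2.49 and 3 FPKM in miR-19a, nearly all of it COL1A1, while COL1A2 and DCN, at no more than 0.02 FPKM, were near 0 in both groups. What part this marker has in the results was not tested. The 4 leukocyte markers summed to between 0.82 and 1.39 FPKM in miR-NC and between 1.54 and 1.97 FPKM in miR-19a, mostly CD14, with CD3E at 0 throughout, and the 2 endothelial markers found to at most 0.05 FPKM. In the control group 1 library stood apart for these genes: miR-NC replicate 3 had the highest normalised count (CPM, counts scaled for library size) of its group for 32 of the 47 genes, and miR-NC replicate 2 the lowest for 25. Over all tested genes those shares were 33% and 33.2%. Leaving out miR-NC replicate 3 gave 12 higher and 14 lower genes of the 47, and leaving out miR-NC replicate 2 gave 7 and 14, against 11 and 16 with all libraries. Over all tested genes these counts were 2913 and 2707, then 2982 and 2802, against 3095 and 2928. In bulk samples a smaller share of replicating cells and less RNA per cell cannot be told apart.

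Replication genes, like the tested genes as a whole, moved in both directions after miR-19a. Their differences were small, under 0.5 on the log2 scale in all genes but DUT. The subunits of the MCM2 to MCM7 helicase, the clamp PCNA and the nucleotide enzymes DUT and TK1 fell. The licensing factors CDC6 and CDT1 and the licensing inhibitor GMNN rose. So did the polymerase subunit POLE, the single-strand binding subunits RPA1 and RPA3 and the DNA ligase LIG1. Of the genes named here, MCM5, CDT1 and LIG1 lost their calls in some alternative settings. All 47 genes passed the filter of a mean of at least 1 FPKM. With edgeR's quasi-likelihood test 16 of them were lower and 11 higher at an adjusted p under 0.05, and 20 did not pass. That is 34% lower and 23.4% higher, against 23.5% and 24.9% of all 12452 tested genes. The share called in either direction was 57.4%, against a background of 48.4%. The groups did not overlap in CPM for 27 of 47 genes (57.4%), against 54% of all tested genes.

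The median log2 fold change over the 47 genes was 0.001, against -0.004 over all tested genes, and the median absolute log2 fold change was 0.16, against 0.18. The 47 values ran from -0.63 for DUT to 0.39 for GMNN. The count of higher genes was 5 when miR-NC replicate 1 was left out and 7 when miR-NC replicate 2 or miR-19a replicate 2 was. Over all tested genes the count of higher genes was 2794, 2982 and 2761 in these settings, against 3095 with all libraries. The count of lower genes of the 47 stayed between 13 and 16 when any 1 library was left out.

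**Figure D1:**
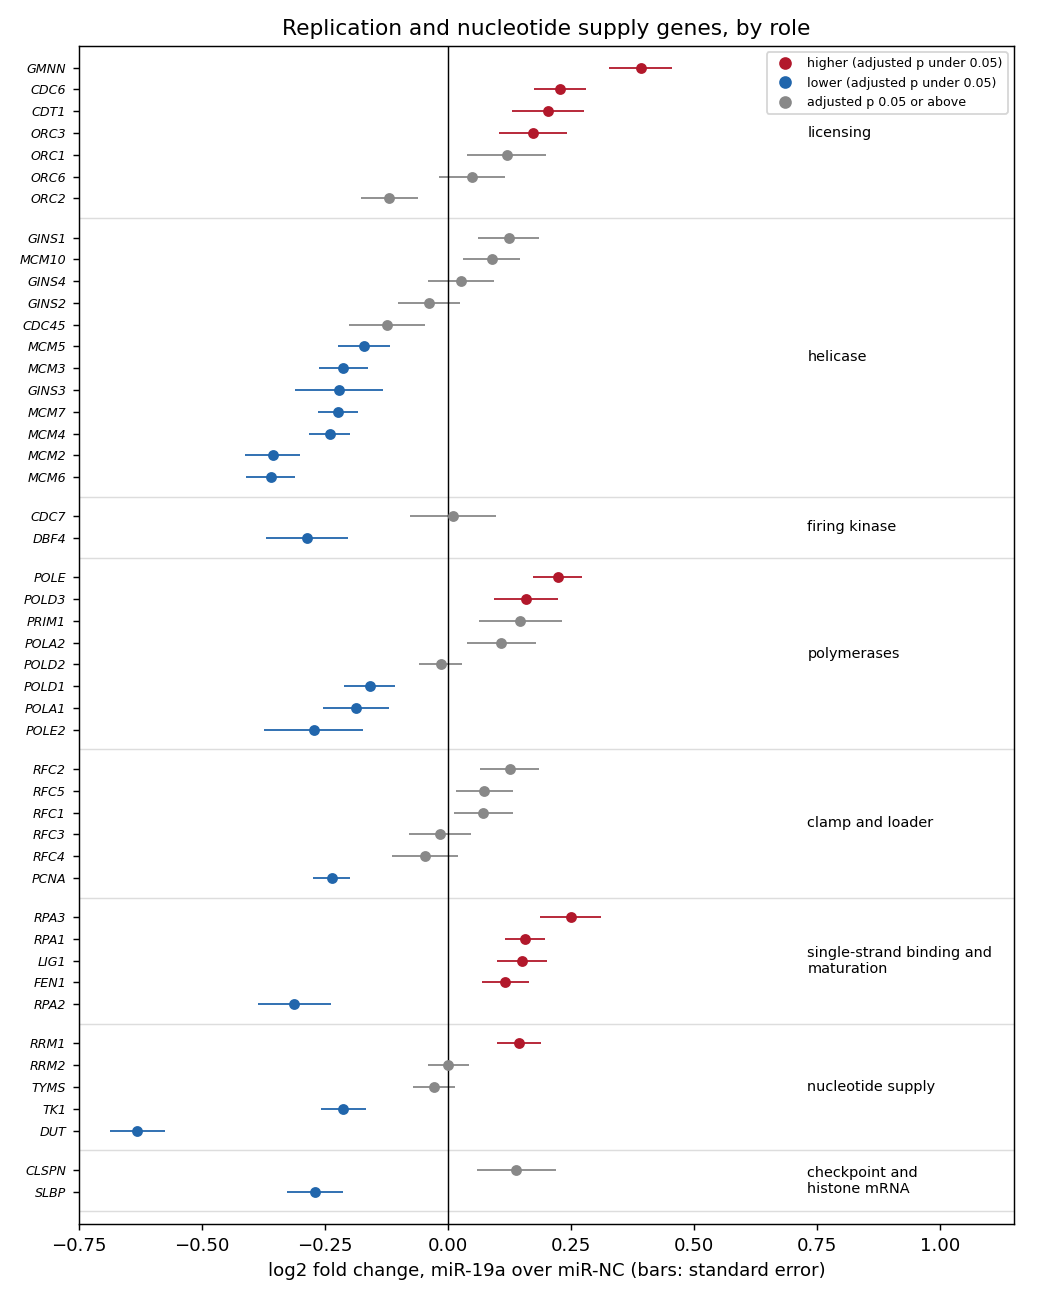
Log2 fold change (miR-19a over miR-NC, horizontal axis, bars show the standard error of the edgeR fit) of each of the 47 genes, grouped by role and coloured by whether the adjusted p was under 0.05. Licensing genes lie mostly to the right, the MCM2 to MCM7 subunits all lie to the left, and DUT lies farthest left at -0.63.

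Among the genes of origin licensing 4 of 7 rose with edgeR (57.1%, against 24.9% of all tested genes). With DESeq2 or limma 2 of 7 rose, the calls of CDT1 and ORC3 being lost. Of all 12452 tested genes DESeq2 called 2701 higher and limma on log2(FPKM + 1) called 2573. Of the 7 genes 0 fell with any of these tools, where edgeR called 23.5% of all tested genes lower. At an unadjusted p under 0.05, 1 was lower with edgeR and with limma and 0 with DESeq2. GMNN, the inhibitor of CDT1, rose most. It stood at 13.5, 12.1 and 13.8 FPKM in miR-NC replicates 1 to 3 and at 16.6, 17.1 and 17.4 FPKM in miR-19a replicates 1 to 3 (libraries are given in this order throughout). The groups did not overlap, and the log2 fold change was 0.39 (SE 0.064, adjusted p = 4.1e-07). CDC6, the ATPase that brings CDT1 and the MCM ring to ORC, stood at 20.9, 19.03 and 22.9 FPKM in miR-NC and at 25.0, 24.6 and 23.1 FPKM in miR-19a. Its highest control library came close to the lowest miR-19a library, and the log2 fold change was 0.23 (SE 0.053, adjusted p = 0.000211).

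CDT1, which loads the ring together with CDC6, stood at 8.3, 8.12 and 10.8 FPKM in miR-NC and at 10.5, 10.0 and 10.3 FPKM in miR-19a. The level in miR-NC replicate 3 was above all 3 miR-19a libraries, so the groups overlapped. The log2 fold change was 0.20 (SE 0.073, adjusted p = 0.0164). The call was lost when miR-NC replicate 1, miR-NC replicate 2 or miR-19a replicate 1 was left out, with fold changes of 0.14, 0.14 and 0.19 and adjusted p-values of 0.15, 0.129 and 0.061. It was also lost in DESeq2, at an adjusted p of 0.0732, and in limma, at 0.163. Leaving out miR-NC replicate 3, the high control library, moved CDT1 the other way, to 0.34 with an adjusted p of 0.000135. The ratio of CDT1 to GMNN in FPKM was 0.617, 0.671 and 0.777 in miR-NC and 0.636, 0.586 and 0.594 in miR-19a. The groups overlapped, and the difference of -0.18 on the log2 scale did not pass (exact two-sided permutation test, p = 0.2, where 0.1 is the smallest p that 3 against 3 libraries allow). It is 1 of 3 ratios tested, and its Benjamini-Hochberg adjusted p was 0.2. The difference was -0.088 when miR-NC replicate 3 was left out.

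The ORC subunits, which mark the origins, differed little. ORC3 rose by 0.17 on the log2 scale (SE 0.069, adjusted p = 0.033), from 7.57, 8.06 and 8.75 FPKM to 8.92, 9.6 and 8.63 FPKM. Its groups overlapped in FPKM but not in CPM. Leaving out miR-NC replicate 1 or 2, or miR-19a replicate 1 or 2, ended that call, with fold changes of 0.12, 0.17, 0.18 and 0.13 and adjusted p-values of 0.206, 0.0556, 0.056 and 0.192. It was also lost with library totals alone, DESeq2 and limma at pseudocounts of 1 and 0.1, at adjusted p-values of 0.056, 0.0959, 0.1 and 0.0998. ORC1 at 0.12 (SE 0.079), ORC6 at 0.05 (SE 0.068) and ORC2 at -0.12 (SE 0.058, adjusted p = 0.084) did not pass.

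All 6 subunits of the MCM2 to MCM7 ring fell, where 23.5% of all tested genes were lower. Their median log2 fold change was -0.23, and in the 15 alternative settings run 5 or 6 of the 6 passed. The ring is the motor of the replicative helicase and contains 1 copy of each subunit. Summed over the 6 genes, the level was 148.9, 143.3 and 155.9 FPKM in miR-NC and 120.8, 122.2 and 129.1 FPKM in miR-19a, so that every control library stood above every miR-19a library. MCM6 fell most, by 0.36 (SE 0.050, adjusted p = 7.4e-09), from 21.3, 20.8 and 21.7 FPKM to 16.2, 17.3 and 15.7 FPKM. MCM2 fell by 0.36 (SE 0.055, adjusted p = 1.3e-07), from 14.4, 13.8 and 14.2 FPKM to 10.9, 10.0 and 11.8 FPKM. For both genes the groups were well apart. An antisense gene covers 22.7% of the exon bases of MCM2 in GENCODE v29, but it is not among the identifiers of the deposited table.

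MCM4 stood at 25.5, 25.6 and 27.3 FPKM in miR-NC and at 21.3, 21.8 and 22.5 FPKM in miR-19a, which gave a difference of -0.24 (SE 0.041, adjusted p = 1.2e-06). MCM7, the ring subunit with the highest FPKM, stood at 51.3, 49.3 and 54.7 FPKM in miR-NC and at 42.2, 43.6 and 45.8 FPKM in miR-19a, a change of -0.22 (SE 0.041, adjusted p = 4.0e-06). Neither gene overlapped between the groups. MCM3 fell by 0.21 (SE 0.050, adjusted p = 0.000287), from 25.8, 23.9 and 26.5 FPKM to 21.2, 20.5 and 23.3 FPKM. MCM5 fell least, by 0.17 (SE 0.053, adjusted p = 0.00592), from 10.6, 9.81 and 11.5 FPKM to 9.03, 8.99 and 10.0 FPKM. Its groups overlapped, and leaving out miR-NC replicate 3 gave -0.12 with an adjusted p of 0.096, while limma gave adjusted p-values of 0.0667 and 0.0669 at pseudocounts of 1 and 0.1.

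The measured log2 fold changes of the ring subunits ran from -0.36 to -0.17, and 1 pair of subunits was compared as a ratio. The ratio of MCM2 to MCM7 in FPKM was 0.281, 0.280 and 0.259 in miR-NC and 0.258, 0.230 and 0.259 in miR-19a. The miR-NC replicate 3 value and the highest miR-19a values almost touched, and the difference of -0.14 on the log2 scale reached the smallest p the design allows (exact two-sided permutation test, p = 0.1, adjusted over the 3 ratios 0.15), which is not below 0.05. Leaving out miR-19a replicate 2, the library with the lowest ratio, brought the difference to -0.08.

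**Figure D2:**
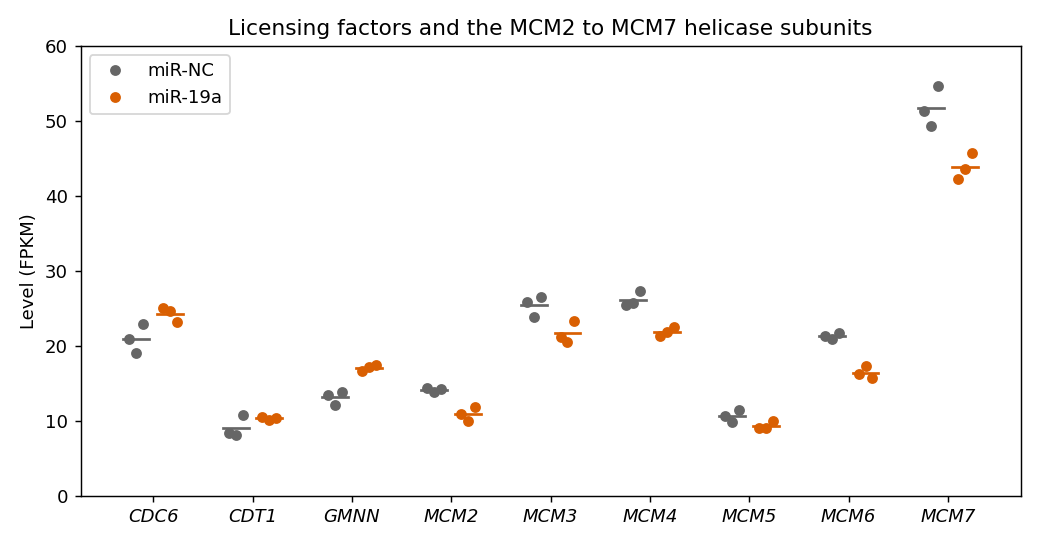
Level in FPKM (vertical axis, from 0) of CDC6, CDT1, GMNN and MCM2 to MCM7 in each library, with 3 miR-NC points and 3 miR-19a points per gene and a line at each mean. GMNN rises from 13.1 to 17.03 FPKM between the means, while MCM7 falls from 51.8 to 43.8 FPKM, and the CDT1 points of the groups overlap.

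Most of the factors that join the ring to form the active helicase did not pass. Of CDC45, MCM10 and the 4 GINS subunits, GINS3 alone fell and 0 rose. Of all tested genes 23.5% were lower and 24.9% higher. GINS3 fell by 0.22 (SE 0.090, adjusted p = 0.0357), from 3.32, 3.51 and 3.31 FPKM to 2.93, 2.95 and 2.73 FPKM. The GINS3 call needed miR-NC replicates 1 and 2 and miR-19a replicates 1 and 3. Leaving out each of these gave fold changes of -0.23, -0.19, -0.24 and -0.19 and adjusted p-values of 0.0551, 0.118, 0.0557 and 0.124. GINS3 also missed the threshold in DESeq2, at 0.0939, and with no filter beyond 1 count, at 0.0891. CDC45, which bridges the ring and GINS, was at -0.12 (SE 0.077, adjusted p = 0.184), GINS2 at -0.04 (SE 0.063) and GINS4 at 0.03 (SE 0.067). GINS1, at 0.12 (SE 0.062, adjusted p = 0.095), and MCM10, a scaffold of helicase activation, at 0.09 (SE 0.058, adjusted p = 0.207), did not pass although their CPM groups did not overlap.

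Of the kinase that activates the loaded ring, the regulatory subunit fell and the catalytic subunit did not pass. DBF4, the activator, stood at 4.36, 5.25 and 4.78 FPKM in miR-NC and at 4.13, 3.81 and 3.74 FPKM in miR-19a, with every miR-19a library below every control library. The log2 fold change was -0.29 (SE 0.084, adjusted p = 0.00321). CDC7, the catalytic subunit, was at 0.01 (SE 0.088, adjusted p = 0.932), with 4.62, 4.65 and 4.94 FPKM in miR-NC and 4.39, 4.73 and 5.01 FPKM in miR-19a.

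Among the 8 genes of the replicative polymerases 2 rose (25%, against 24.9% of all tested genes) and 3 fell (37.5%, against 23.5%). Subunits of polymerases epsilon and delta were called in both directions, as were the tested genes as a whole. POLE, the catalytic subunit of the leading strand polymerase epsilon, stood at 4.51, 4.08 and 4.42 FPKM in miR-NC and at 4.98, 4.93 and 5.1 FPKM in miR-19a. It rose by 0.22 (SE 0.050, adjusted p = 0.000129). POLE2, the second subunit of the same enzyme, fell by 0.27 (SE 0.10, adjusted p = 0.0197), from 4.86, 4.99 and 4.4 FPKM to 3.79, 3.9 and 3.98 FPKM. The groups did not overlap for either gene, but POLE2 did not pass when miR-NC replicate 1 or 2 or miR-19a replicate 1 was left out, with fold changes of -0.26, -0.23 and -0.26 and adjusted p-values of 0.0617, 0.0819 and 0.0619, nor in DESeq2, at 0.0606.

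Polymerase delta, which extends the lagging strand, also had calls in both directions. POLD1, its catalytic subunit, fell by 0.16 (SE 0.052, adjusted p = 0.00818), from 14.4, 15.1 and 15.8 FPKM to 13.02, 13.2 and 13.8 FPKM. POLD3, an accessory subunit, rose by 0.16 (SE 0.065, adjusted p = 0.0359), from 6.11, 6.02 and 6.22 FPKM to 6.43, 7.25 and 6.58 FPKM. POLD2 was level at -0.01 (SE 0.044), with between 30.3 and 30.8 FPKM in miR-NC and between 29.7 and 30.1 FPKM in miR-19a. Both calls were fragile. POLD1 gave -0.13 (adjusted p = 0.0633) when miR-NC replicate 3 was left out and -0.14 (adjusted p = 0.0502) when miR-19a replicate 1 was. POLD3 lost its call when any of miR-NC replicates 1 to 3 or miR-19a replicate 2 was left out, with fold changes of 0.16, 0.15, 0.17 and 0.10 and adjusted p-values of 0.0816, 0.074, 0.052 and 0.255. It also lost it with library totals alone (0.0614), DESeq2 (0.0959), limma (0.0904 and 0.0877) and no filter beyond 1 count (0.0578).

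In the polymerase alpha and primase complex, which starts each new strand, POLA1, the catalytic subunit, fell by 0.19 (SE 0.067, adjusted p = 0.0162). Its levels were 5.54, 5.26 and 5.26 FPKM in miR-NC and 4.69, 4.77 and 4.49 FPKM in miR-19a, without overlap. Leaving out miR-NC replicate 1 or miR-19a replicate 3 gave -0.16 in both cases, with adjusted p-values of 0.0843 and 0.0617. POLA2 at 0.11 (SE 0.070) and the primase PRIM1 at 0.15 (SE 0.085) did not pass. In GENCODE v29 a gene on the same strand covers 35.1% of the exon bases of POLA2, but that gene is not among the identifiers of the deposited table. How reads there were counted is unknown here.

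The remaining subunits of these 3 enzymes were taken from the list of companion genes below because they complete the complexes. They too had calls in both directions. POLE3 and POLE4, the histone-fold subunits of polymerase epsilon, fell by 0.30 (SE 0.046, adjusted p = 1.8e-07) and 0.31 (SE 0.057, adjusted p = 4.9e-06). PRIM2, the large primase subunit, rose by 0.29 (SE 0.096, adjusted p = 0.00867), and POLD4 was at 0.11 (SE 0.057, adjusted p = 0.121).

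**Figure D3:**
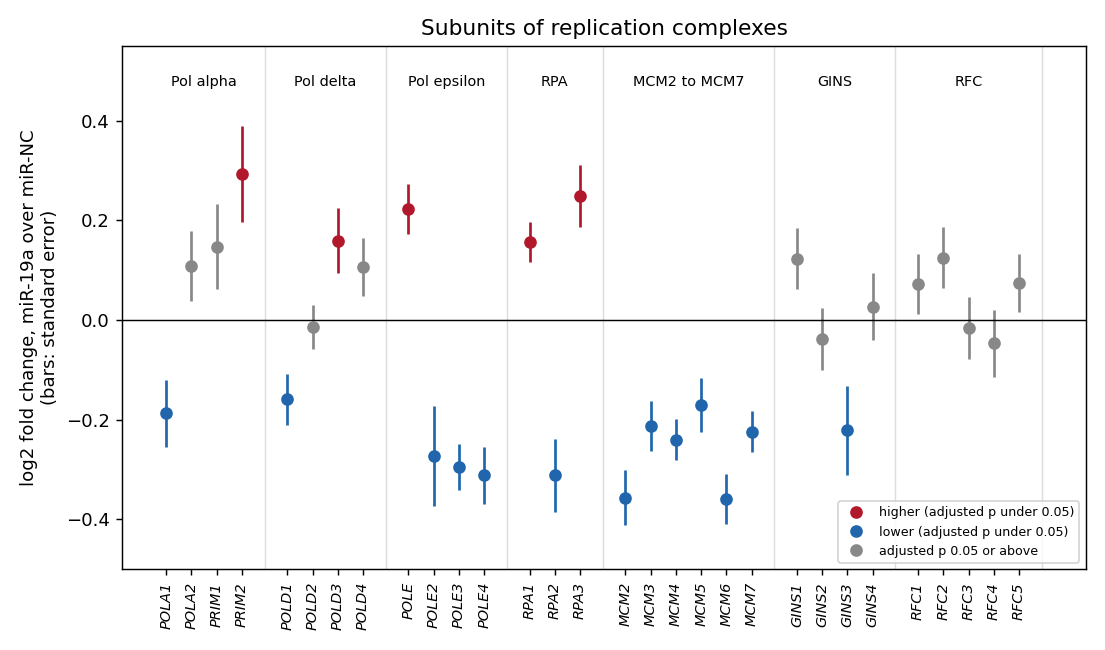
Log2 fold change (miR-19a over miR-NC, vertical axis, bars show the standard error) of each subunit, grouped by complex and coloured by whether the adjusted p was under 0.05. All 6 MCM2 to MCM7 points lie below 0, whereas polymerase epsilon and RPA each have points past the threshold on both sides of 0.

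PCNA, the sliding clamp that tethers polymerases to DNA, had the highest FPKM of the 47 genes and fell. Of the 5 RFC subunits that load it, 0 passed with edgeR, DESeq2 or limma, where edgeR called 48.4% of all tested genes. At an unadjusted p under 0.05, 1 of them was higher with edgeR and 0 with DESeq2 or limma. PCNA stood at 248.98, 230.8 and 249.4 FPKM in miR-NC and at 211.6, 202.1 and 198.7 FPKM in miR-19a. All 3 miR-19a libraries were below the lowest control library, and the log2 fold change was -0.24 (SE 0.038, adjusted p = 3.6e-07). The RFC genes lay between -0.05 for RFC4 (SE 0.067) and 0.13 for RFC2 (SE 0.060, adjusted p = 0.081), with RFC3 at -0.02 (SE 0.063), RFC1 at 0.07 (SE 0.060) and RFC5 at 0.07 (SE 0.058). RFC2 passed when miR-NC replicate 3 was left out, at 0.21 with an adjusted p of 0.00563.

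The 3 subunits of RPA, the complex that coats single-stranded DNA, did not move together. RPA3, the smallest subunit, rose by 0.25 (SE 0.063, adjusted p = 0.000637), from 13.1, 11.1 and 13.1 FPKM to 14.7, 15.3 and 13.8 FPKM. RPA1, the largest, rose by 0.16 (SE 0.040, adjusted p = 0.000835), from 28.2, 27.7 and 28.5 FPKM to 30.7, 31.3 and 31.0 FPKM. Both were higher in every miR-19a library than in any control library. RPA2, the subunit that checkpoint kinases phosphorylate, fell by 0.31 (SE 0.074, adjusted p = 0.000296). Its levels were 19.1, 15.1 and 20.1 FPKM in miR-NC and 15.5, 13.4 and 14.3 FPKM in miR-19a, and the low miR-NC replicate 2 made the groups overlap.

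The enzymes that finish lagging strand fragments rose slightly. LIG1, the ligase that seals them, stood at 9.51, 9.89 and 9.62 FPKM in miR-NC and at 10.5, 10.6 and 10.8 FPKM in miR-19a, without overlap, and rose by 0.15 (SE 0.051, adjusted p = 0.0117). Leaving out miR-NC replicate 1 gave 0.14 with an adjusted p of 0.0549. FEN1, the nuclease that removes the flap, rose by 0.12 (SE 0.048, adjusted p = 0.0371), from 37.0, 35.5 and 38.2 FPKM to 37.1, 41.4 and 40.3 FPKM, with overlap. FEN1 lost its call when miR-NC replicate 1 or 2 or miR-19a replicate 2 or 3 was left out, with fold changes of 0.12, 0.09, 0.08 and 0.10 and adjusted p-values of 0.0778, 0.123, 0.228 and 0.0981. With library totals alone, DESeq2 and limma at pseudocounts of 1 and 0.1 the adjusted p-values were 0.0777, 0.0872, 0.15 and 0.152.

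In nucleotide supply DUT showed the largest difference of all 47 genes. DUT encodes dUTPase, which breaks down dUTP, so that uracil is kept out of DNA, and yields the precursor of thymidylate. It stood at 18.99, 18.1 and 19.6 FPKM in miR-NC and at 12.9, 11.3 and 12.1 FPKM in miR-19a. The groups were far apart relative to their spread, and DUT fell by 35.4%, which is -0.63 on the log2 scale (SE 0.056, adjusted p = 2.0e-15). DUT has a nuclear and a mitochondrial isoform, which gene counts do not separate. The 8 processed pseudogenes named after it were listed at 0 counts in all 6 libraries. An antisense gene covering 14.5% of its exon bases had 19 counts over the 6 libraries, against 5651 for DUT.

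TK1, the cytosolic thymidine kinase of the salvage pathway, also fell, by 0.21 (SE 0.046, adjusted p = 7.5e-05), from 63.5, 61.0 and 66.5 FPKM to 51.3, 54.96 and 56.7 FPKM without overlap. TYMS, thymidylate synthase, which makes thymidylate anew, did not pass at -0.03 (SE 0.042, adjusted p = 0.611), with 60.5, 58.1 and 63.1 FPKM in miR-NC and 58.3, 61.1 and 56.8 FPKM in miR-19a. ENOSF1, on the opposite strand, covers 39.1% of the exon bases of TYMS. It had 4216 counts over the 6 libraries, against 14712 for TYMS. How strand was treated in counting is unknown here, so reads of that stretch cannot be assigned to either gene.

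Ribonucleotide reductase turns ribonucleotides into deoxyribonucleotides. RRM1, its large subunit, rose by 0.14 (SE 0.045, adjusted p = 0.00559), from 26.96, 28.7 and 29.7 FPKM to 31.7, 32.1 and 29.5 FPKM. The RRM1 groups overlapped in FPKM but not in CPM. RRM2, the S phase small subunit, was at 0.00 (SE 0.041, adjusted p = 0.986), with 37.8, 38.8 and 42.1 FPKM in miR-NC and 40.3, 39.9 and 37.3 FPKM in miR-19a. The rise of RRM1 did not pass when miR-NC replicate 1 was left out (0.11, adjusted p = 0.087) or when miR-19a replicate 2 was (0.12, adjusted p = 0.0566), nor in limma, at 0.0754 and 0.0771 with pseudocounts of 1 and 0.1. In GENCODE v29 a same-strand gene covers 20.2% of the exon bases of RRM2, but it is not among the identifiers of the deposited table. The ratio of RRM2 to RRM1 in FPKM was 1.40, 1.35 and 1.42 in miR-NC and 1.27, 1.24 and 1.27 in miR-19a. The groups did not overlap, and the difference of -0.14 on the log2 scale gave the smallest p the design allows (exact two-sided permutation test, p = 0.1, adjusted over the 3 ratios 0.15).

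**Figure D4:**
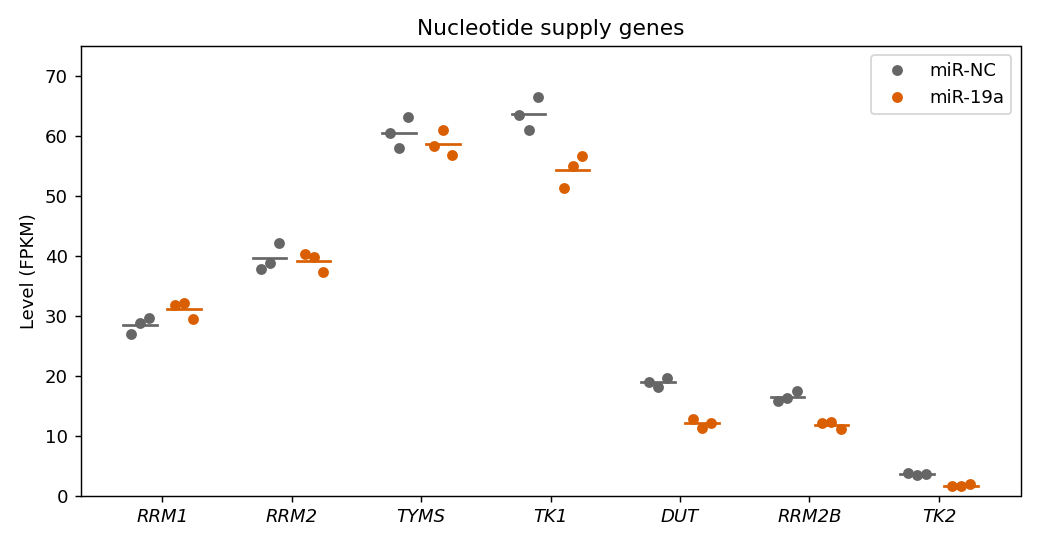
Level in FPKM (vertical axis, from 0) of RRM1, RRM2, TYMS, TK1, DUT and the companion genes RRM2B and TK2 in each library, with 3 miR-NC points and 3 miR-19a points per gene and a line at each mean. DUT falls from a mean of 18.9 to 12.1 FPKM, and TK2 from 3.61 to 1.67 FPKM, while RRM2 and TYMS overlap.

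SLBP binds the stem-loop of histone mRNAs and is needed to process and translate them in S phase. It fell by 0.27 (SE 0.058, adjusted p = 6.5e-05), from 28.4, 28.6 and 32.9 FPKM to 25.8, 24.2 and 23.7 FPKM, without overlap. CLSPN, claspin, the fork protein through which ATR activates CHEK1, did not pass at 0.14 (SE 0.080, adjusted p = 0.152), with between 3.62 and 3.96 FPKM in miR-NC and between 3.79 and 4.43 FPKM in miR-19a.

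Other genes of the same pathways, listed by function, were lower more often than higher. Of 62 such companion genes 59 were tested, and 19 were lower (32.2%, against 23.5% of all tested genes) and 8 higher (13.6%, against 24.9%), with a median log2 fold change of -0.06. MCM9 and MTBP lay under the filter and UHRF1 was not matched. In licensing and firing 2 of 11 rose (18.2%) and 3 fell (27.3%), against 24.9% and 23.5% of all tested genes. MCM8, a helicase related to the ring subunits, rose by 0.21 (SE 0.055, adjusted p = 0.00117) and DONSON, which helps to assemble the helicase, by 0.31 (SE 0.10, adjusted p = 0.00902). ORC4, a further ORC subunit, fell by 0.23 (SE 0.064, adjusted p = 0.00225) and RIF1, which restrains origin firing, by 0.16 (SE 0.050, adjusted p = 0.00569). Leaving out miR-NC replicate 2 ended the calls of DONSON, at 0.22 with an adjusted p of 0.0961, and RIF1, at -0.12 with an adjusted p of 0.0595. RIF1 also missed the threshold in limma, at 0.0655 and 0.062.

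Among 17 fork genes 4 rose and 4 fell, 23.5% in each direction, which is near the 24.9% higher and 23.5% lower of all tested genes. Besides POLE3 and POLE4, the topoisomerase TOP1, which relieves the twist ahead of the fork, rose by 0.29 (SE 0.040, adjusted p = 9.8e-09), from 39.4 ± 0.56 to 47.6 ± 0.645 FPKM (mean ± SD, n = 3 per group). ATAD5, which unloads PCNA, rose by 0.28 (SE 0.082, adjusted p = 0.00377), which did not pass when miR-NC replicate 1 was left out, at 0.21 with an adjusted p of 0.0582, or in limma, at 0.0676 and 0.066.

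Of 16 further nucleotide enzymes 9 fell (56.2%, against 23.5% of all tested genes) and 0 rose (against 24.9%). TK2, the mitochondrial thymidine kinase, fell most, by 1.09 (SE 0.087, adjusted p = 2.6e-17), from 3.77, 3.46 and 3.59 FPKM to 1.57, 1.57 and 1.88 FPKM. RRM2B, the small reductase subunit used outside S phase, fell by 0.46 (SE 0.051, adjusted p = 6.4e-12), from 15.7, 16.3 and 17.5 FPKM to 12.1, 12.3 and 11.2 FPKM. In neither gene did the groups overlap. The pyrimidine synthesis enzymes CAD, at -0.31 (SE 0.041, adjusted p = 2.4e-09), and DHODH, at -0.35 (SE 0.083, adjusted p = 0.000296), were named after their values were seen. With edgeR, DESeq2 and limma alike, 0 of the 16 were higher at an adjusted p under 0.05 and 0 at an unadjusted one, while DESeq2 and limma each called 7 lower.

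In chromatin assembly and checkpoint control 2 of 15 rose (13.3%, against 24.9% of all tested genes) and 3 fell (20%, against 23.5%). ASF1A, a histone chaperone, rose by 0.50 (SE 0.081, adjusted p = 4.4e-07) and HUS1, a subunit of the checkpoint clamp, by 0.25 (SE 0.075, adjusted p = 0.00376). SUPT16H, the large subunit of the histone chaperone FACT, fell by 0.49 (SE 0.042, adjusted p = 3.8e-16) and DNMT1, the maintenance methyltransferase, by 0.25 (SE 0.047, adjusted p = 1.1e-05).

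miR-19a lowers messenger RNAs that pair with its seed, so the 3′ UTRs of the 47 genes were searched for seed matches. The mature sequence is that of the 3p arm in RefSeq on GRCh38.p14 (chr13:91350939-91350961, plus strand), and the labels do not name the arm used. Capitals mark the seed, bases 2 to 8.

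hsa-miR-19a-3p: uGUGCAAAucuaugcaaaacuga

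A 3′ UTR was taken from the GENCODE v29 transcript with the longest coding sequence, on GRCh38. A match was classed by its letters as an 8mer (TTTGCACA), a 7mer-m8 (TTTGCAC), a 7mer-A1 (TTGCACA) or a 6mer (TTGCAC). Of the 47 genes 5 (10.6%) had a match of 7 nt or more, against 18.7% of the 10552 tested genes with a 3′ UTR. They were DUT, ORC2, GINS1, POLD3 and GINS4. In the 3′ UTRs searched, none was found for MCM2 to MCM7, PCNA, TK1, RPA2 or SLBP. Another transcript of LIG1, which rose, held a 7mer-A1 and is not counted. The sites of 4 genes are shown because the fold changes of these genes lie on both sides of 0, with capitals marking the match to the seed.

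DUT: tttgcttcaagtgttttggtgtTTTGCACt
ORC2: ggtaatatatcatacttgctggTTTGCACc
GINS1: ggaaggaaggacacacatggatTTTGCACA
POLD3: attgcagtggtgtgctggtgatTTTGCACA

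The DUT window lies at chr15:48342141-48342170 on the plus strand. Its 7mer-m8 starts at base 85 of a 3′ UTR of 1295 nt. The ORC2 window is at chr2:200909156-200909185 on the minus strand, with a 7mer-m8 at base 2138 of 2328 nt. The GINS1 window, at chr20:25446639-25446668 on the plus strand, holds an 8mer that starts at base 670 of 2564 nt. The POLD3 window, at chr11:74641985-74642014 on the plus strand, holds an 8mer that starts at base 1241 of 2291 nt. Only DUT, of these 5 genes, fell, where 23.5% of all tested genes were lower. The median log2 fold change of the 5 was 0.03, against -0.07 over the 1969 tested genes with a match of 7 nt or more.

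Of the 47 genes 2 had an 8mer, GINS1 and POLD3. GINS1 was at 0.12 and did not pass. POLD3 was at 0.16, a call lost in DESeq2, in limma and with some libraries left out. Over the tested genes with a 3′ UTR, the 639 with an 8mer had a median log2 fold change of -0.15. Whether the match had an effect in these 2 genes was not tested. GINS1 stood at 8.67, 9.03 and 9.43 FPKM in miR-NC and at 9.31, 10.2 and 9.72 FPKM in miR-19a. ORC2, with the same class of match as DUT, was at -0.12, with 8.41, 9 and 8.79 FPKM in miR-NC and 7.98, 8.29 and 7.6 FPKM in miR-19a, and did not pass. The 780 tested genes with a 7mer-m8 had a median of -0.06. GINS4, with a 7mer-A1, was at 0.03, with between 6.61 and 7.85 FPKM in miR-NC and between 6.58 and 7.86 FPKM in miR-19a. Among the 59 companion genes tested 5 (8.5%) had such a match, an 8mer in TK2, a 7mer-m8 in POLE4 and MTHFD1 and a 7mer-A1 in POLE3 and CMPK1. Transcripts not counted here held a 7mer-A1 in RRM2B and ATR, a 7mer-m8 in RNASEH2B and an 8mer in CHEK1. Of these RRM2B fell, and ATR, RNASEH2B and CHEK1 did not pass. TK2, POLE3, POLE4 and MTHFD1, an enzyme of folate metabolism (-0.20, SE 0.040, adjusted p = 2.5e-05), fell, where 23.5% of all tested genes were lower. CMPK1, a nucleoside monophosphate kinase, was at 0.01 (SE 0.044, adjusted p = 0.817). The median log2 fold change of these 5 companion genes was -0.3, against -0.07 over all tested genes with such a match.

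**Figure D5:**
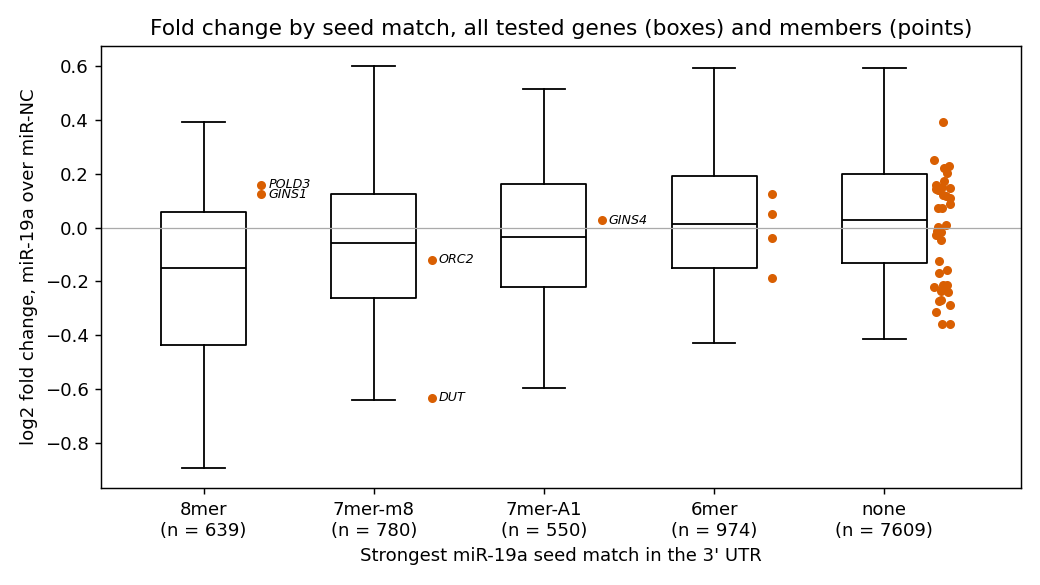
Log2 fold change (miR-19a over miR-NC, vertical axis) by the strongest seed match in the 3′ UTR, for all tested genes with a 3′ UTR (boxes show the quartiles and median, whiskers the percentiles 5 and 95) and for the 47 genes (points). DUT lies far below the median of the 7mer-m8 box, while POLD3 and GINS1 lie above the upper quartile of the 8mer box.

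Seed matches also lie in coding sequences. Of the 47 genes 8 (17%) had a match of 7 nt or more in the coding sequence, against 14.5% of the 10552 tested genes with a 3′ UTR. Of these 8, DBF4, MCM3, POLE2, PCNA and DUT were lower, RRM1 was higher, and CDC45 and ORC2 did not pass. Over those 10552 genes, 31.9% of those with such a coding match were lower and 23.9% of those without. The median log2 fold changes were -0.05 and 0.02. DBF4 carried an 8mer there, and DUT and ORC2 each a 7mer-A1 besides their 3′ UTR match. DUT and ORC2 are therefore counted in both searches.

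Promoters were searched for the letters of the E2F motif, since E2F factors are known to drive many of these genes. The window ran from 250 bases before to 50 bases after each RefSeq start site on GRCh38.p14, and 41 of the 47 genes had an entry. Searched on both strands were TTTCCCGC, TTTCGCGC, TTTGCCGC and TTTGGCGC. Of 41 promoters 19 (46.3%) held at least 1 of them, against 3.3% of 27305 promoters of the table and 5.6% of the 9033 that belong to tested genes. The letters were found among genes of either direction. They were present in 5 of 9 promoters of genes that were higher, in 8 of 13 of genes that were lower and in 6 of 19 of genes that did not pass. CCAAT was present in 23 of 41 promoters (56.1%), against 37.0% of those of tested genes.

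The 120 bases before the start site are shown for 3 genes that fell and 2 that rose, with E2F letters in capitals, to set the same motif beside opposite changes.

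MCM6: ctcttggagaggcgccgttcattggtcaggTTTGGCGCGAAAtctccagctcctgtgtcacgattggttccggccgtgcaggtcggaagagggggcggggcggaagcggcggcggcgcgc
MCM7: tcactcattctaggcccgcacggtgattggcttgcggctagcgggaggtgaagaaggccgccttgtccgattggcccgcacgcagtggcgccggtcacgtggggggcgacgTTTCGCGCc
PCNA: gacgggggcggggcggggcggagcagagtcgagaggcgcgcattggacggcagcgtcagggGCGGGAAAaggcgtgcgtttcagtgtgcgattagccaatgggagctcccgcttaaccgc
CDT1: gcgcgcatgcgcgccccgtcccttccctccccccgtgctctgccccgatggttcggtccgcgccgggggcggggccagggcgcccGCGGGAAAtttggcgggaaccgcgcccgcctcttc
POLE: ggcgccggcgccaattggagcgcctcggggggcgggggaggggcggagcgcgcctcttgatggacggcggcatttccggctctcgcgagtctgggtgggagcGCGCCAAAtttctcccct

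These stretches lie at chr2:135876444-135876563 (MCM6, minus strand), chr7:100101398-100101517 (MCM7, minus strand), chr20:5126623-5126742 (PCNA, minus strand), chr16:88803669-88803788 (CDT1, plus strand) and chr12:132687343-132687462 (POLE, minus strand). In MCM6 a pair of motifs on opposite strands overlaps and starts 90 bases before the start site, and a second such pair, outside the stretch shown, starts at 152 bases. The motif starts 59 bases before the start site in PCNA, 35 in CDT1, 18 in POLE and 9 in MCM7. A second motif of MCM7, outside the stretch shown, starts at 187 bases. MCM6, MCM7 and PCNA fell by 0.36, 0.22 and 0.24 on the log2 scale, and CDT1 and POLE rose by 0.20 and 0.22. The CDT1 groups overlapped, and its call was lost in DESeq2, in limma and with some libraries left out.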

How the data were processed

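Per the labels' protocols, poly(A) RNA of 6 samples was read as pairs of 150 nt. bcl2fastq 2.17.1.14 is named in the submitters' processing notes. For aligner, counter, annotation, strand setting and build, the tools and versions were not given in the sources used here. Deposited were whole-number counts and, per the file headers, FPKM, which the authors rounded to 2 decimals. FPKM allow levels of different genes to be compared, and counts were used for tests. Of the identifiers, 39538 took a symbol from a table of gene names and 12800 from GENCODE v29, and 5567 had none.

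edgeR 4.0.16 in R 4.3.3 (quasi-likelihood, TMM factors, two-sided, 3 libraries against 3) tested the 12452 genes whose mean FPKM reached 1, with Benjamini-Hochberg adjustment over all of them. Each SE was computed from the fold change and its F statistic, and CPM were scaled by TMM. The common biological coefficient of variation was 0.0352. All pairs of libraries within a group differed beyond sampling noise (chi-square per gene 1.6 to 4.22). The test was checked on simulated counts. The 47 genes, the lists and the searches were chosen with earlier results of these data known, so no list is given a p-value. Any of the 47 could be named. Values per library are given for up to 3 rising and 3 falling genes of each role with the smallest adjusted p, for genes in the 3 ratios and for those with a seed match of 7 nt or more, and, after their values were seen, for the remaining called genes and CDC7. Companion genes named are up to 2 rising and 2 falling per list, besides PRIM2, POLD4, CAD, DHODH, MTHFD1 and CMPK1. Other normalizations and filters, DESeq2 1.42.0, limma 3.58.1, a replicate block and leaving out each library were alternatives. Python 3.11.15 was used for sequence searches.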

Additional observations from a re-analysis of the deposited data

How the results depend on the processing

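Under the 15 alternatives run, 16 of the 27 called genes kept their call wherever they were tested, and 0 of the 27 changed direction. The 16 were CDC6, GMNN, MCM2, MCM3, MCM4, MCM6, MCM7, DBF4, POLE, PCNA, RPA1, RPA2, RPA3, TK1, DUT and SLBP, of which DBF4 and POLE were not tested at a mean FPKM of at least 5. Of the 20 genes without a call, 3 gained one under some alternative (ORC2 with library totals alone, PRIM1 and RFC2 without miR-NC replicate 3). The count of higher genes, 11, was 7 with DESeq2 and 6 with limma on log2(FPKM + 1) or log2(FPKM + 0.1), and lay between 5 and 12 with 1 library left out. The cause was not tested. Over all tested genes the count of higher genes, 3095, was 2701, 2573 and 2566 with these tools, and lay between 2761 and 2982 with 1 library left out. The count of lower genes, 16, lay between 13 and 17 over all alternatives. The count of higher companion genes, 8, was 5 at a mean FPKM of at least 5, where 44 and not 59 of them were tested.

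Genes near 0 changed sign without passing. With 1 library left out, GINS2 lay between -0.065 and 0.0050, GINS4 between -0.050 and 0.103, CDC7 between -0.037 and 0.057, RFC3 between -0.085 and 0.060, RRM2 between -0.031 and 0.045 and the companion gene CMPK1 between -0.037 and 0.057. With library totals alone CDC7 was at -0.0052, RRM2 at -0.015 and CMPK1 at -0.0020. With limma at pseudocounts of 1 and 0.1, CDC7 was at -0.0077 and -0.0094, RRM2 at -0.014 and -0.0141 and CMPK1 at -0.0031 and -0.0033. RRM2 was at -0.00035 with median-of-ratios factors, -0.00032 with DESeq2 and -0.0021 at a mean FPKM of at least 5.

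Libraries with the same replicate number did not deviate together (correlations of 0.0085, 0.00055 and -0.031). Whether such libraries were handled together is not given in the labels, and these correlations cannot show it. With the replicate block 11 of the 47 genes were higher and 16 lower, as without it, and the ratios differed by -0.142 (RRM2 to RRM1), -0.179 (CDT1 to GMNN) and -0.136 (MCM2 to MCM7). Genes with few counts, such as GINS3 with 1589 over the 6 libraries, had wider errors than PCNA.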
